A study of Mus musculus with 6 samples.

Results

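Genes of the interferon response were followed in 6 clones of mpkCCD, a mouse cell line from the cortical collecting duct of the kidney, where vasopressin controls water uptake. The genes were chosen by symbol from a list of 39 interferon-stimulated antiviral, antigen presentation and STAT or IRF genes, and 36 of them had a row in the deposited read table of 20896 genes. Ddx58, Psmb8 and Psmb9 were not analysed here. All 36 had enough reads to enter the test, which covered 16683 genes.

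The groups were 3 control clones and 3 clones labelled PKA dKO, a double knockout of protein kinase A, all made from mpkCCDc11; the series title names CRISPR-Cas9, and which genes were edited is not named in the labels. Every clone was 1 library. All 6 clones were grown for 4 days on permeable supports in medium with 2% serum, insulin, dexamethasone, triiodothyronine, epidermal growth factor, selenite and transferrin, and then kept for 3 days with 0.1 nM dDAVP, a vasopressin analog, without serum or hormones. The labels mention no interferon, virus or nucleic acid given to the cells, so the levels below are those of cells under dDAVP. How the clones were derived is not described there, and differences between single clones other than the knockout cannot be told apart from an effect of the knockout on 3 clones.

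Cells that sense foreign RNA or DNA make interferons, which bind receptors on the same and neighbouring cells. Janus kinases at these receptors phosphorylate STAT proteins, and a complex that holds STAT2 and IRF9 binds a short response element (ISRE) in front of genes whose products block viral replication, while STAT dimers bind the gamma-activated site (GAS). Many of these genes keep a low level in unstimulated epithelial cells, and several of them, such as IRF7, IRF9 and USP18, feed back on the pathway itself.

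The letters of these elements were looked for in the 250 bases before the start site in RefSeq promoters (GRCm38.p6), where 28 of the 36 genes had an entry. The core of the ISRE, GAAA followed after any 2 bases by GAAA on either strand, was in 11 of these 28 promoters (39.3%) and in 2.98% of all 32851 promoters of the table. The GAS letters, TTCNNNGAA, which read the same on both strands, were in 5 of 28 (17.9%; Irf1, Eif2ak2, Oas1a, Ifit2 and Bst2) and in 7.02% of all promoters. The stretches of Isg15, Ifit1, Ifit3, Oas1a, Gbp2 and B2m are shown because 2 of the 3 lowest fold changes of the 6 libraries (Gbp2, Oas1a), a gene that passed the test in 4 libraries alone (Ifit3) and the gene with the highest level per length (B2m) are among them. They are written 5′ to 3′ on the strand of the gene, and capitals mark the ISRE core or its reverse complement (TTTC, any 2 bases, TTTC). The stretch of Gbp2 is short because it meets the first exon of the deposited transcript.
Isg15, chr4:156200850-156200921, minus strand: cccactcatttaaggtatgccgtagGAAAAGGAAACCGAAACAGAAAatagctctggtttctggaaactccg
Ifit1, chr19:34640760-34640838, plus strand: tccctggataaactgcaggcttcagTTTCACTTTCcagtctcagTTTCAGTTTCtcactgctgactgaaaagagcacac
Ifit3, chr19:34583348-34583441, plus strand: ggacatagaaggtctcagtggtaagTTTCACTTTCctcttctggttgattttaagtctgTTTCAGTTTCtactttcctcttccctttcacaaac
Oas1a, chr5:120907526-120907570, minus strand: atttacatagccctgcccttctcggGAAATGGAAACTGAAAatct
Gbp2, chr3:142620594-142620623, plus strand: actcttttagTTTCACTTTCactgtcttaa
B2m, chr2:122147523-122147582, plus strand: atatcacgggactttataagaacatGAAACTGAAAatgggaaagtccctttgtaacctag
In Isg15 3 cores overlap, in Oas1a 2 overlap, and in Ifit1 and Ifit3 2 cores stand apart. Ifit2, Ifi44 and Irf7 had an entry without an exact ISRE core in this window, which says only that these letters are not in these 250 bases. Parp14, Oas2, Usp18, Ifi27, Dhx58, Parp9, Mx1 and Mx2 had no entry.

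Reads recovered from the table numbered 28596444 to 42515838 per library. A first principal component with 68.1% of the variance set 2 libraries, control clone 1 and dKO clone 3, at 1 end, so each group held 1 of them. Of 1351 olfactory and vomeronasal receptor genes, which belong to sensory neurons, 50.8% and 51.0% had a read in these 2 libraries, against 81.9% to 87.4% in the other 4. Results are therefore given for all 6 libraries, for the 4 others (control clones 2 and 3 against dKO clones 1 and 2), and as the difference of dKO clone 3 minus control clone 1. Rows were found for 14 of 15 markers of epithelium and collecting duct, with a summed level of 7096 to 8764 CPM (reads relative to the library's total) in control clones and 6948 to 7646 CPM in dKO clones and none past the threshold. Rows were found for 10 of 12 leukocyte markers, which summed to 38.5 to 66.8 CPM in the controls against 39.1 to 70.1 in the dKO clones, most of it Csf1r with a mean of 45.2 CPM. The other 9 summed to 2.16 to 11.5 CPM, and Lyz2 was at 0 in dKO clone 3. Endothelial and fibroblast markers summed to 1.77 to 10.3 CPM in every library. Receptor genes, endothelial and fibroblast markers and the leukocyte markers other than Csf1r were lowest in control clone 1 and dKO clone 3. Their part in the results on low interferon response genes was not tested. In bulk RNA, fewer cells with a transcript and less transcript per cell cannot be told apart.

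The 36 genes were expressed at levels that differed widely. Per kilobase of transcript (RPKM, the CPM divided by transcript length), B2m, the light chain of MHC class I, was highest at 80.8 in control and 94.9 in dKO clones. Samd9l, a restriction factor of poxviruses, followed at 78.9 and 75.7, then Ifit2 at 26.0 and 36.8 and Irf1 at 25.1 and 22.8. At the other end stood Mx1, a dynamin-like GTPase against influenza viruses, at 0.159 and 0.137 RPKM. The 95th percentile of the receptor genes served as a floor, and was 0.176 and 0.177 RPKM in control clone 1 and dKO clone 3 and 0.361 to 0.627 RPKM in the other 4 libraries. In all 6 libraries 32 genes were above it. Rsad2 was above it in 5 libraries, Gbp3 in 4, Oas3 in 3 and Mx1 in none, so the level of Mx1 cannot be set apart from reads on silent genes, nor can those of the other 3 in the libraries where they are below the floor. No gene was without reads, and the lowest value was 7 reads, of Mx1.

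**Figure D1:**
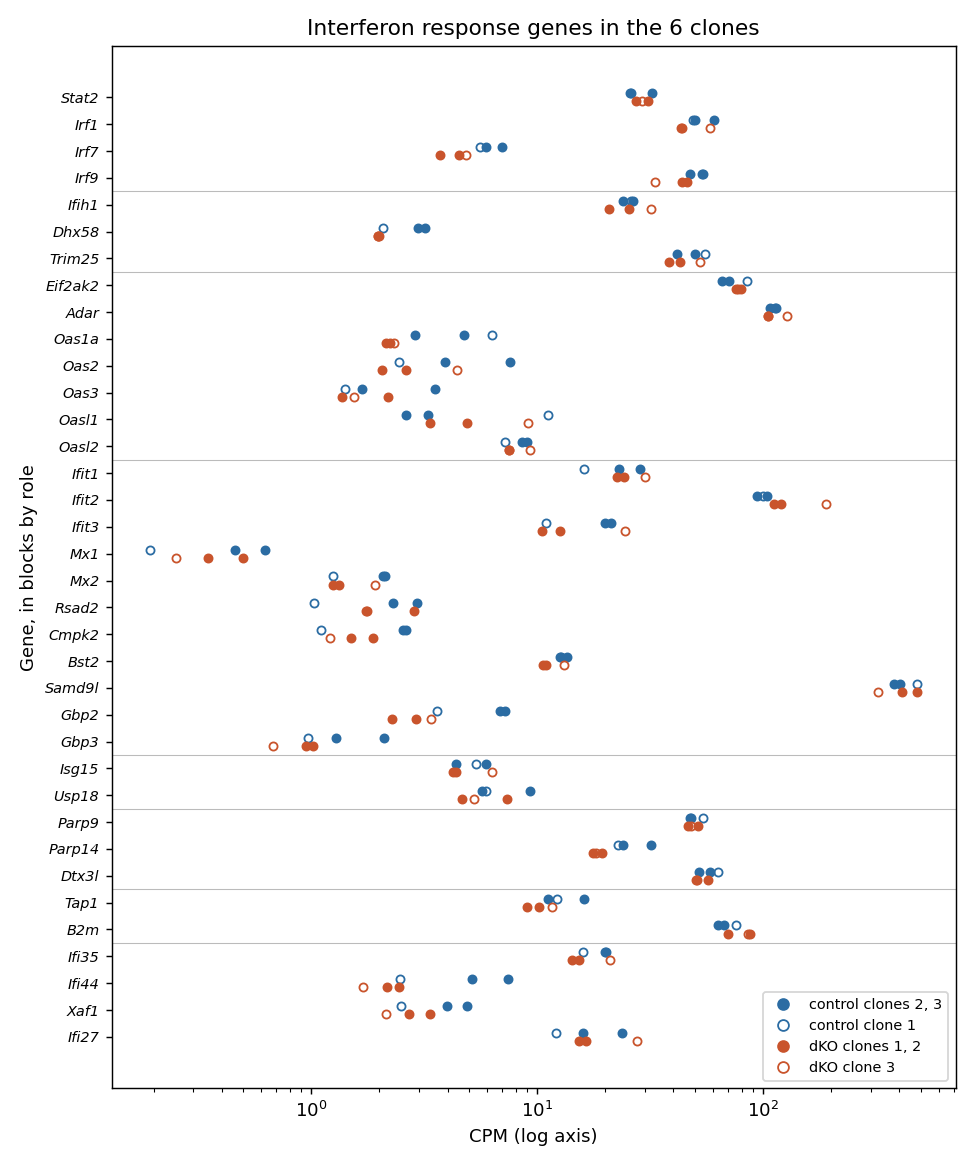
CPM of each of the 36 genes (log axis) in the 6 clones, in blocks by role, with control clones in blue, dKO clones in orange, and open symbols for control clone 1 and dKO clone 3. Levels run from below 1 CPM for Mx1 to between 321 and 479 CPM for Samd9l, and in most rows the colours overlap.

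None of the 36 genes passed the test for a difference of the dKO from the control clones (limma-trend, p adjusted over all genes tested by Benjamini and Hochberg, under 0.05), where 0.168% of all genes did, 0.114% as lower in dKO clones. The lowest adjusted p was 0.5001, of Gbp2. At an unadjusted p under 0.05 there were 6 genes, or 16.7%, against 6.25% of all genes tested: Gbp2, Parp14, Oas1a, Ifi44 and Irf9 with lower and Ifit2 with higher values in dKO clones. Of all genes tested 3.84% were lower and 2.40% higher at that p. On the recovered reads edgeR's quasi-likelihood test called 0 of 36 (5 at an unadjusted p under 0.05), as did limma-voom (6) and DESeq2 (6, with an adjusted p not given for 1 gene), which called 1.71% of the 12475 genes it gave an adjusted p. Of all 16683 genes, 1049 were under that unadjusted p with the quasi-likelihood test, 1061 with limma-voom and 1103 with DESeq2. The authors' deposited table of edgeR results lists 24 of the 36, none with a false discovery rate under 0.05, where 3.47% of its 10190 genes have one. Its lowest is 0.102, for Ifit2 with a log2 fold change of 0.46, followed by 0.142 for Parp14 with -0.54. Gbp2, Oas1a, Ifi44, Oas2 and Dhx58 are among the genes it does not list, so it gives no value for them. In all 6 fits that left out 1 library the count past the adjusted threshold stayed 0. At an unadjusted p under 0.05 from limma these fits gave 2 to 6 of the 36 genes, and 719 to 1724 of all genes tested. The 2 came without control clone 2, where 1001 of all 17024 genes tested were under that p. Deposited FPKM gave 3 genes, where 536 of all 16683 were under that p. Removal of each library's chromosome medians gave 4, where 1133 of all 16683 were.

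Of the log2 fold changes (dKO minus control), 26 were negative and 10 positive, with a median of -0.15. Over all genes tested 50.2% were negative and the median was -0.0016. In 8 genes the clones of the groups did not overlap, 7 with dKO clones lower (Gbp2, Parp14, Oas1a, Ifi44, Irf9, Irf7 and Dhx58) and 1 with dKO clones higher (Ifit2). This was 22.2% of the 36, against 10.8% of all genes tested (5.68% with dKO clones lower and 5.17% higher). The genes share their regulators, so they are not independent of one another.

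**Figure D2:**
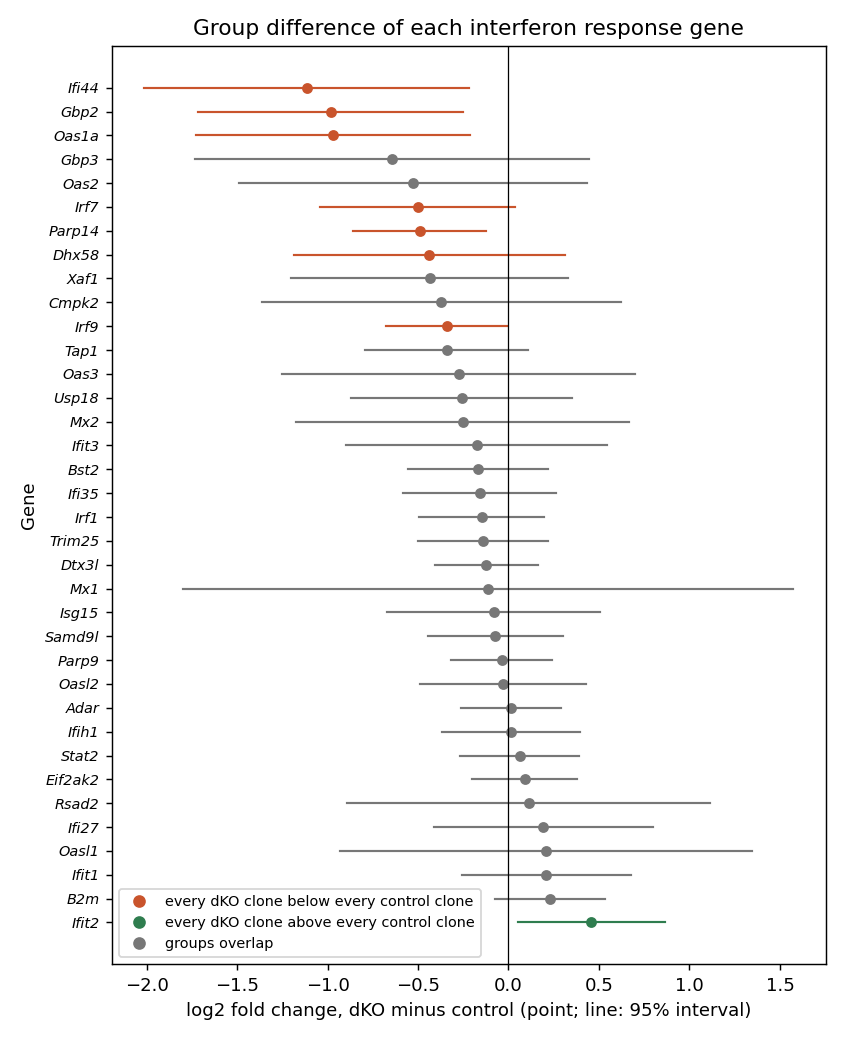
log2 fold change of dKO against control clones for the 36 genes, with 95% intervals from limma and the genes in order of the change; orange marks genes with every dKO clone below every control clone, green every dKO clone above, grey overlap. The widest interval is that of Mx1 (-1.80 to 1.57), the gene with the fewest reads. Oasl1, with 100 to 402 reads per library, follows (-0.93 to 1.34). No gene passed the adjusted threshold.

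Among the transcription factors, Stat2 and Irf1 differed little between the groups, while Irf7 and Irf9 were lower in each dKO clone than in any control clone without passing the test. Stat2, the partner of IRF9 (ENSMUSG00000040033.16; GRCm38 chromosome 10, 128270576 to 128292849, plus strand, 24 exons), had 25.9, 32.3 and 25.7 CPM in control clones 1, 2 and 3, the order used throughout, against 31.0, 27.3 and 28.9 in dKO clones 1, 2 and 3. Its log2 fold change was 0.06 (95% interval -0.27 to 0.39). The groups overlapped, and control clone 2 was highest. Irf1, which activates antiviral and antigen presentation genes (chromosome 11, 53770014 to 53777323, plus strand, 10 exons), had 49.0, 60.5 and 49.9 CPM in the controls against 43.6, 43.0 and 57.9 in the dKO clones. Control clone 2 and dKO clone 3 were thus the high clones of their groups.

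Irf7, the factor that amplifies interferon production (ENSMUSG00000025498.15; chromosome 7, 141263183 to 141266481, minus strand, 10 exons), had 5.59, 5.93 and 7.00032 CPM in the controls against 4.48, 3.71 and 4.85 in the dKO clones. The log2 fold change was -0.50 (SE 0.25, 95% interval -1.04 to 0.04, with 0.856 as adjusted p from limma). Irf9, the DNA-binding part of its complex with STAT2 (ENSMUSG00000002325.15; chromosome 14, 55603571 to 55610030, plus strand, 10 exons), had 53.2, 53.8 and 47.1 CPM in the controls against 43.6, 45.8 and 33.1 in the dKO clones. Its log2 fold change was -0.34 (SE 0.15, with 0.778 as adjusted p from limma). The low value of dKO clone 3 carried much of this difference, since the log2 fold change was -0.16 in the 4 other libraries. The 573 genes tested on chromosome 14 had median deviations of 0.28, 0.13 and -0.03 on the log2 scale in the controls. In the dKO clones these were 0.08, 0.12 and -0.44. With each library's chromosome medians removed Irf9 stood at -0.13. Irf9 overlaps Rnf31 (28.5 CPM) by 123 bases on the same strand.

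The RNA sensors showed no difference past the threshold. Ifih1 (MDA5), a sensor of long double-stranded RNA, had 25.8, 26.4 and 24.0 CPM in the controls against 25.5, 20.7 and 31.8 in the dKO clones, with the highest and the lowest clone both in the dKO group. Dhx58 (LGP2), a helicase that tunes these sensors, had 2.07, 3.18 and 2.97 CPM in the controls against 1.97, 2.00 and 1.96 in the dKO clones. The dKO clones lay just under control clone 1, and the log2 fold change was -0.44 (SE 0.34). Trim25, a ubiquitin ligase acting on RIG-I, had 55.3, 50.0 and 41.3 CPM in the controls against 42.6, 38.1 and 52.5 in the dKO clones, so the groups overlapped.

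Among enzymes that act on double-stranded RNA, Adar, Eif2ak2 and Oasl2 differed between clones by at most 1.29-fold, and the other 4 by 2.499-fold to 4.17-fold. Adar, which edits adenosine to inosine, had 113, 107 and 112 CPM in the controls against 105, 104 and 127 in the dKO clones. Eif2ak2 (PKR), which halts translation, had 84.3, 65.3 and 70.1 CPM in the controls against 75.5, 79.6 and 77.2 in the dKO clones. The 95% intervals of their log2 fold changes were -0.26 to 0.29 and -0.20 to 0.38. A part of the Adar span, 1014 bases, overlaps Chrnb2 on the other strand.

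Active oligoadenylate synthetases make the signal that activates RNase L. All 5 genes of the family studied here, with the synthetase-like Oasl1 and Oasl2 among them, are on chromosome 5. Oas1a (ENSMUSG00000052776.10; 120896256 to 120907521, minus strand, 7 exons) had 6.31, 4.75 and 2.88 CPM in the controls against 2.14, 2.22 and 2.33 in the dKO clones. The control clones spread over more than the gap between the groups, and the dKO clones were close together. Its log2 fold change was -0.97 (SE 0.34, 95% interval -1.73 to -0.21, with 0.549 as adjusted p from limma). Oas2 had 2.43, 7.60 and 3.89 CPM in the controls against 2.04, 2.63 and 4.40 in the dKO clones, so control clone 2 stood alone and the other 5 overlapped.

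Oasl1, which binds Irf7 mRNA and limits its translation, had the highest SD between clones of a group among the 36 (0.94 on the log2 scale), with 11.1, 3.27 and 2.63 CPM in the controls against 4.85, 3.36 and 9.12 in the dKO clones. The high clones were control clone 1 and dKO clone 3, where the receptor genes were lowest. Oas3 and Oasl2 overlapped between the groups, with means of 2.20 ± 1.14 (SD, n = 3) and 8.27 ± 0.94 CPM in control clones and 1.70 ± 0.43 and 8.11 ± 1.05 CPM in dKO clones. These genes are paralogs, and their values are uncertain as far as near-identical copies share reads, since the rule for such reads was not stated.

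Of the antiviral effectors, Gbp2 had lower and Ifit2 higher values in every dKO clone than in any control clone, without passing the test. Gbp2, a GTPase that attacks vacuoles of intracellular pathogens (ENSMUSG00000028270.12; chromosome 3, 142620602 to 142638008, plus strand, 11 exons), had 3.60, 6.84 and 7.18 CPM in the controls against 2.27, 2.91 and 3.37 in the dKO clones. Each dKO clone was lower than any control clone, but dKO clone 3 lay close to control clone 1. The log2 fold change was -0.98 (SE 0.33, 95% interval -1.72 to -0.25, with 0.5001 as adjusted p from limma), or 1.98-fold lower. Its neighbour and paralog Gbp3 had 0.968, 2.10 and 1.29 CPM in the controls against 0.946, 1.01 and 0.673 in the dKO clones, and the groups overlapped.

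IFIT proteins bind viral RNA, and their genes lie together on chromosome 19. Ifit2 (ENSMUSG00000045932.12; 34550710 to 34576419, plus strand, 3 exons) had 99.6, 94.1 and 104 CPM in the controls against 111, 119.6 and 189.7 in the dKO clones. Each dKO clone was above each control clone, by little in dKO clones 1 and 2 and by more in dKO clone 3. The log2 fold change was 0.46 (SE 0.18, 95% interval 0.05 to 0.87, with 0.679 as adjusted p from limma), and 0.23 in the 4 other libraries. On chromosome 19 the 620 genes tested had median deviations of -0.01, -0.10 and -0.06 in the controls. In the dKO clones these were -0.04, 0.11 and 0.15. With chromosome medians removed Ifit2 stood at 0.33 (SE 0.16, with 0.0669 as unadjusted p from limma). Ifit1 and Ifit3 are described here after their values were seen. Ifit1 had 16.1, 28.5 and 22.9 CPM in the controls against 22.5, 24.1 and 29.9 in the dKO clones. Ifit3 had 10.9, 21.2 and 19.99 CPM in the controls against 12.5, 10.5 and 24.4 in the dKO clones. In both genes control clone 1 was the lowest control clone and dKO clone 3 the highest of all.

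Samd9l (chromosome 6, 3372257 to 3399572, minus strand, 2 exons) was abundant throughout, with 479, 379 and 403 CPM in the controls against 409, 478 and 321 in the dKO clones. Its groups overlapped, and dKO clone 3 was lowest. The 877 genes tested on chromosome 6 had median deviations of 0.03, 0.19 and 0.10 in the controls. In the dKO clones these were 0.10, 0.12 and -0.40. The log2 fold change of Samd9l, -0.07, was 0.10 with chromosome medians removed. Bst2 (tetherin), which holds budding virus at the cell surface, had 12.9 ± 0.46 CPM in the controls against 11.5 ± 1.38 in the dKO clones (SD, n = 3 each). Rsad2 (viperin) and its neighbour Cmpk2 on chromosome 12, which act together on nucleotides, had means of 2.08 ± 0.97 and 2.10 ± 0.86 CPM in the controls against 2.12 ± 0.63 and 1.52 ± 0.33 in the dKO clones. Mx1 and Mx2 were at 0.425 ± 0.216 and 1.81 ± 0.49 CPM in the controls against 0.366 ± 0.124 and 1.49 ± 0.36 in the dKO clones. The groups of these 5 genes overlapped, and in Rsad2, Cmpk2, Mx1 and Mx2 control clone 1 was the lowest control clone, as it was for the receptor genes. Among the dKO clones, dKO clone 3 was the lowest in Cmpk2, in Mx1 and, by little, in Rsad2 (1.74 against 1.77 CPM in dKO clone 1). In Mx2 it was the highest (1.91 CPM).

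Isg15, a ubiquitin-like protein joined to other proteins, and Usp18, the protease that removes it and dampens receptor signalling, did not differ past the threshold. Isg15 had 5.37, 4.35 and 5.92 CPM in the controls against 4.38, 4.21 and 6.31 in the dKO clones, and its log2 fold change was -0.08 with a 95% interval of -0.67 to 0.51. Usp18 had 5.89, 9.23 and 5.69 CPM in the controls against 7.37, 4.66 and 5.25 in the dKO clones. The groups overlapped in both genes, and Usp18 was highest in control clone 2 and lowest in dKO clone 2.

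Parp14, Parp9 and Dtx3l lie side by side on chromosome 16. The first 2 encode proteins of the ADP-ribosyltransferase family, and the third a ubiquitin ligase that forms a complex with PARP9. Parp14 (ENSMUSG00000034422.14; 35832874 to 35871544, minus strand, 17 exons) had 22.8, 31.8 and 23.8 CPM in the controls against 17.6, 19.4 and 18.1 in the dKO clones. All dKO clones were below all control clones, and they were closer together than the control clones. The log2 fold change was -0.49 (SE 0.17, 95% interval -0.86 to -0.12, with 0.507 as adjusted p from limma), or -0.56 in the 4 other libraries and -0.33 for dKO clone 3 minus control clone 1. Parp9 had 54.1, 47.2 and 47.9 CPM in the controls against 51.3, 46.2 and 47.8 in the dKO clones, the smallest spread of the 36. Dtx3l had 62.6, 58.1 and 51.9 CPM in the controls against 57.0, 50.4 and 51.0 in the dKO clones. Parp9 and Dtx3l overlap head to head by 682 bases on opposite strands. Parp9 also overlaps LOC102639045 (61.3 CPM) by 5853 bases, again on opposite strands.

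Antigen presentation was measured through B2m and Tap1, a subunit of the peptide transporter that loads MHC class I. B2m (chromosome 2, 122147686 to 122153083, plus strand, 4 exons) had 76.0, 63.2 and 67.0 CPM in the controls against 87.6, 69.5 and 85.2 in the dKO clones. Its log2 fold change was 0.23 (SE 0.14, 95% interval -0.07 to 0.53). Tap1 had 12.2, 11.1 and 16.1 CPM in the controls against 10.2, 9.03 and 11.6 in the dKO clones, and its log2 fold change was -0.34 (SE 0.20). Groups overlapped in both genes, and the 2 fold changes had opposite signs.

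Among the other induced genes Ifi44 had the lowest fold change of the 36. Ifi44, named for its induction by interferon (ENSMUSG00000028037.13; chromosome 3, 151730922 to 151749960, minus strand, 8 exons), had 2.46, 7.40 and 5.14 CPM in the controls against 2.44, 2.15 and 1.68 in the dKO clones. Control clone 1 was almost level with dKO clone 1, and the separation rested on control clones 2 and 3. The log2 fold change was -1.12 (SE 0.41, 95% interval -2.01 to -0.22, with 0.579 as adjusted p from limma), or 2.17-fold lower. Xaf1, which promotes cell death, had 2.49, 4.88 and 3.98 CPM in the controls against 2.69, 3.36 and 2.13 in the dKO clones. Ifi35 had 15.9, 20.2 and 19.9 CPM in the controls against 15.2, 14.3 and 21.04 in the dKO clones. Ifi27, a small protein of membranes, had 12.1, 23.7 and 15.9 CPM in the controls against 15.3, 16.3 and 27.5 in the dKO clones. In these 3 genes control clone 1 was the lowest of its group. Ifi27 and Ifi35 were highest in dKO clone 3, and Xaf1 was lowest there.

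**Figure D3:**
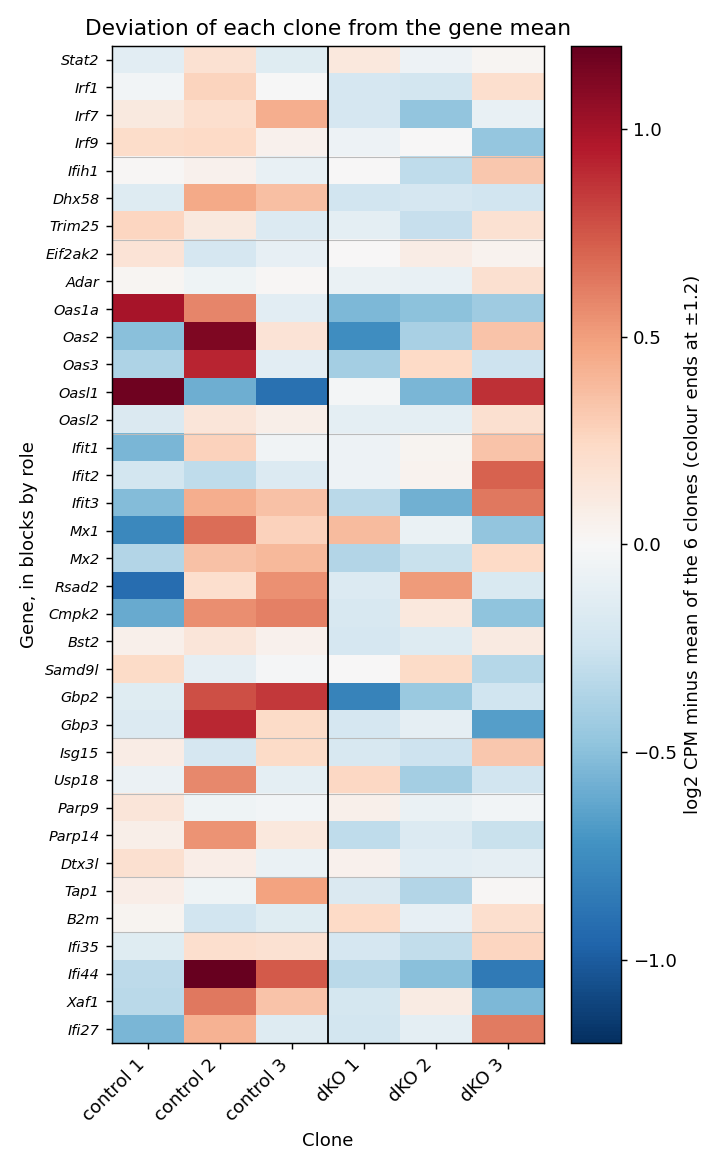
Deviation of each clone from the mean of the 6 clones (log2 CPM, colour scale ending at ±1.2) for the 36 genes in blocks by role. Control clone 2 is often red and dKO clones 1 and 2 often blue, while control clone 1 and dKO clone 3 differ in colour from gene to gene.

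The clones of a group differed from one another about as much as those of other genes. The median SD between clones of a group was 0.26 on the log2 scale, against 0.27 over all genes tested, and counting error alone would give a median SD of 0.07. In 22 of the 36 genes (61.1%) the group difference was smaller than this SD, as in 72.3% of all genes tested. Spread depended on level. The 16 genes with a mean of 1 to 10 CPM had a median SD of 0.43, against 0.46 for all genes in that range, and the 16 genes with 10 to 100 CPM had 0.20 against 0.18. From lowest to highest clone, Oasl1 differed 4.17-fold, Ifi44 4.29-fold, Oas2 3.65-fold and Gbp2 3.12-fold, but Parp9 only 1.17-fold and Adar 1.22-fold.

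**Figure D4:**
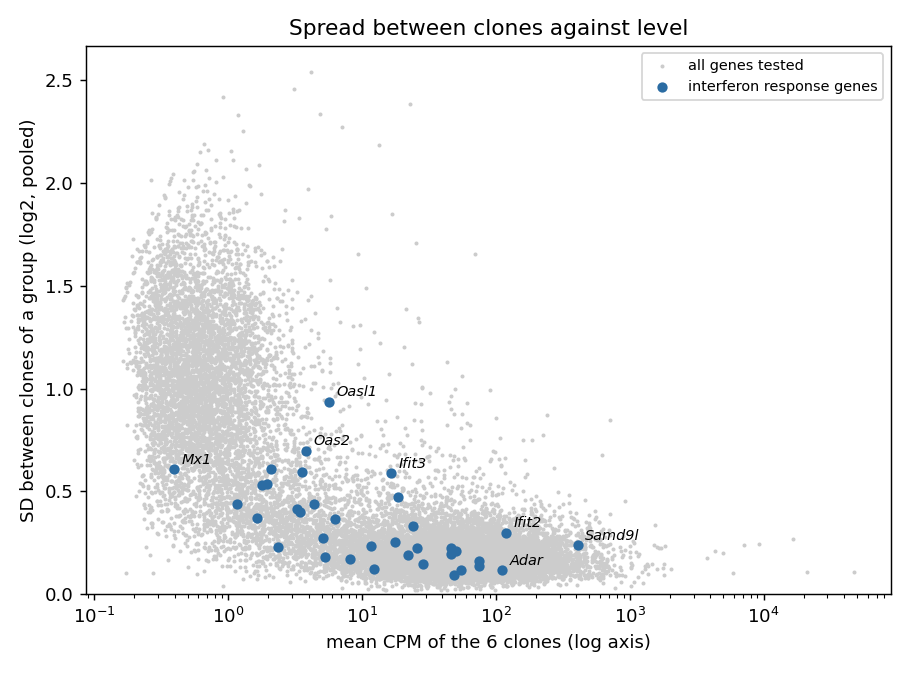
SD between clones of a group (log2, pooled over the groups) against the mean CPM of the 6 clones (log axis), with the 36 genes in blue and all 16683 genes tested in grey. The 36 genes lie within the grey cloud. Oas2 (0.70) is between the quartiles of all genes at 1 to 10 CPM (0.28 and 0.90), Oasl1 (0.94) just above the upper one, and Ifit3 (0.59) above the upper quartile of genes at 10 to 100 CPM (0.25).

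Single clones took part unequally. Control clone 2 was the highest of the 6 in 13 genes (36.1%, against 25.2% of all genes tested), dKO clone 3 in 9 (25%, against 22.1%), control clone 1 in 7 (19.4%, against 26.0%) and control clone 3 in 6 (16.7%, against 7.55%). dKO clone 1 was the highest in 1 gene and dKO clone 2 in 0, against 6.19% and 13.0% of all genes. The lowest clone was dKO clone 2 in 12 genes (33.3%, against 14.2% of all genes), dKO clone 1 in 7 (19.4%, against 9.74%), and control clone 1 and dKO clone 3 in 6 each (16.7%, against 24.8% and 19.8%). The summed level of the 36 genes nevertheless differed little, from 1242 to 1341 CPM in the controls against 1237 to 1307 in the dKO clones, and Samd9l, Ifit2 and Adar made up much of it.

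With control clones 2 and 3 and dKO clones 1 and 2 alone, 4 of the 36 genes passed the test (11.1%, against 3.00% of all genes tested in that fit), all lower in dKO clones, where 1.47% of all genes were lower. They were Gbp2 with a log2 fold change of -1.42 (SE 0.30, with 3.35e-03 as adjusted p from limma), Ifi44 with -1.40 (6.73e-03), Ifit3 with -0.84 (9.19e-03) and Oas2 with -1.21 (0.0399). Over all settings tried, the adjusted p ran from these values to 1.00 in each of the 4 genes. The 4 libraries were chosen by the principal component of these same data, so the adjusted p of this fit hold for that choice of clones and are not an independent test. At an unadjusted p under 0.05 there were 10 genes, all lower, where 11.9% of all genes in that fit passed, 5.61% as lower. Of the 36 fold changes 29 were negative (80.6%, against 51.3% of all genes) with a median of -0.29. Between dKO clone 3 and control clone 1, by contrast, 19 genes were higher in the dKO clone and 17 lower, with a median difference of 0.08 and no test, since each side is 1 library.

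The sign differed between these sets of libraries in 20 of the 36 genes (55.6%), against 47.5% of all genes tested. Ifit3 stood at -0.84 in the 4 libraries and at 1.16 for dKO clone 3 minus control clone 1, Oas2 at -1.21 and 0.84, and Ifi27 at -0.29 and 1.17. Ifi44 (-1.40 and -0.53), Oas1a (-0.74 and -1.42) and Parp14 (-0.56 and -0.33) had the same sign in both. Gbp2 was at -1.42 and -0.09. The difference between the sets was not tested.

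**Figure D5:**
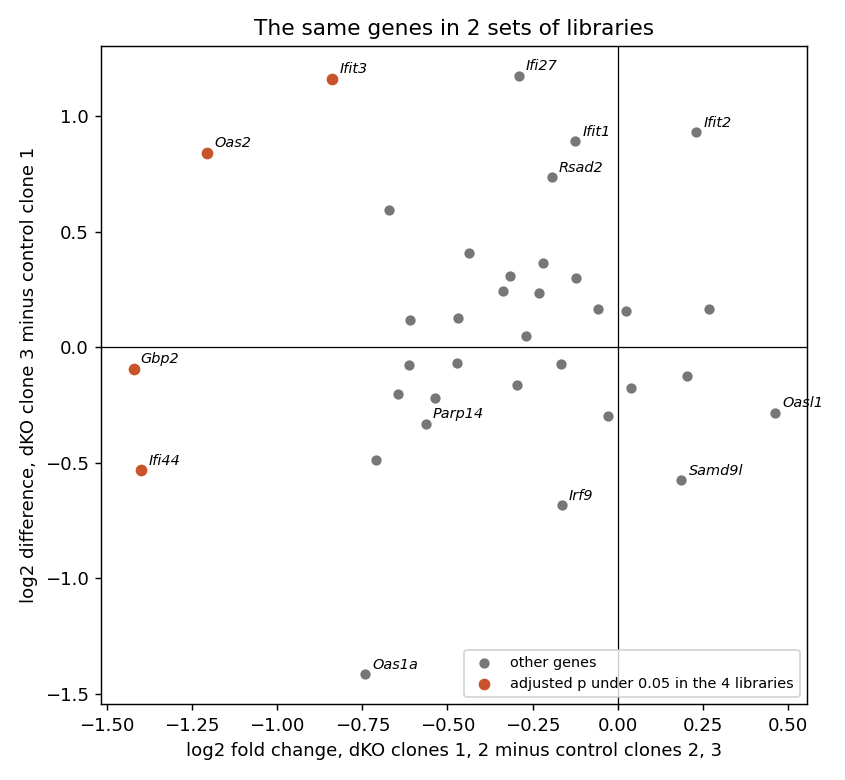
log2 fold change in control clones 2 and 3 against dKO clones 1 and 2 (horizontal) and log2 difference of dKO clone 3 minus control clone 1 (vertical) for the 36 genes, with the 4 genes past the threshold in orange. Most points lie left of 0, and they spread to both sides of 0 on the vertical axis.

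The rest of the pathway was read from lists with 144 genes in the table, of which 125 were tested and 0 passed (limma; 12 at an unadjusted p under 0.05, 9 lower and 3 higher, or 9.60% against 6.25% of all genes tested; 2 with DESeq2 and 0 with the quasi-likelihood test). Interferon genes themselves were near 0. Among 17 ligand genes with a row, 15 had no read in at least 1 library, and apart from Ifnk none had more than 13 reads in a library. Ifnb1 had 8 reads over all 6 libraries. Ifnk, an interferon of epithelia, was the only one tested, with 0.876 ± 0.091 CPM in the controls against 0.574 ± 0.350 in the dKO clones (SD, n = 3 each).

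Of 10 receptor and Janus kinase genes named, 7 had a row, and the others were not analysed. These 7 were present in every clone, and none of them passed. The receptor subunit genes Ifnar2, Ifngr1 and Il10rb had 54.8 ± 3.79, 62.2 ± 3.31 and 72.5 ± 5.66 CPM in the controls against 51.5 ± 2.37, 66.4 ± 3.21 and 61.4 ± 2.44 in the dKO clones. Jak2 had 67.5 ± 14.8 and 86.6 ± 12.2 CPM (log2 fold change 0.37, SE 0.17). Of 14 sensing adaptors and kinases, those with the lowest p were Tmem173 (STING, log2 fold change -0.30), Myd88 (-0.23), Zbp1 (-0.76) and Tlr3 (-0.21), with adjusted p of 0.950 or more. Among 11 other STAT and IRF genes the lowest p belonged to Stat5b (log2 fold change 0.35), Irf2bp2 (-0.35), Stat5a (0.21) and Stat3 (0.14). In the 4 libraries other than those at the end of the principal component, Stat5b stood at 0.14. There Irf2bp2 stood at -0.11, Stat5a at 0.03 and Stat3 at 0.10. Tlr3 turned to 0.08 in these libraries, while Tmem173 stood at -0.20, Myd88 at -0.33 and Zbp1 at -0.85.

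Of 10 feedback inhibitors tested, Socs2, which damps cytokine receptors, had the lowest p. It had 21.4, 29.5 and 26.8 CPM in the controls against 18.3, 13.9 and 15.9 in the dKO clones, and its log2 fold change was -0.69 (SE 0.18, with 0.260 as adjusted p from limma), and the groups did not overlap. Pias2 (log2 fold change 0.25), Ptpn6 (-0.25) and Socs1 (0.32) followed, with Ptpn6 at -0.0076 in the 4 libraries. Among 17 antigen presentation genes 3 were lower at an unadjusted p under 0.05 (17.6%, against 3.84% of all genes tested) and none higher. The nonclassical MHC gene H2-T23 had 13.2, 19.7 and 15.7 CPM in the controls against 11.5, 8.17 and 7.91 in the dKO clones (log2 fold change -0.82, SE 0.22, with 0.298 as adjusted p from limma). The immunoproteasome subunit gene Psmb10 stood at -0.65, and the proteasome activator genes Psme1 and Psme2, both on chromosome 14, at -0.41 and -0.29. These last 2 values rested on control clone 1 and dKO clone 3: they were -0.0924 and -0.0466 in the 4 other libraries, and -1.02 and -0.78 for dKO clone 3 minus control clone 1.

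Of 65 other interferon-induced genes tested 49 had a negative fold change (75.4%, against 50.2% of all genes tested), with a median of -0.18. Slfn2, a schlafen gene, had the lowest p, with 3.73, 2.49 and 2.46 CPM in the controls against 0.498, 0.634 and 1.12 in the dKO clones. Each dKO clone was below each control clone, and the log2 fold change was -1.92 (SE 0.46, with 0.208 as adjusted p from limma). Gbp9 (-0.64) and Herc6 (-0.45, or -0.27 in the 4 libraries) were also lower in every dKO clone than in any control clone, and Ifi30 (0.38), a thiol reductase of lysosomes, was higher in every one. DESeq2 called Slfn2 and Socs2, both lower. In the 4 other libraries 9 of the 125 pathway genes passed (7.20%, against 3.00% of all genes), 8 lower and 1 higher, among them Slfn2, Socs2, H2-T23, Psmb10 and Ifi30. The others were Slfn8, Trim30a, Sp140 and Ddx60. Trim30a, Sp140 and Ddx60 stood at -1.60, -1.69 and -0.75 there, but at 1.18, 0.21 and 0.24 for dKO clone 3 minus control clone 1. The remaining genes kept their sign, with Ifi30 at 0.0124 in that difference.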

How the data were processed

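Per the labels' protocols, libraries were stranded, from total RNA after removal of ribosomal RNA. GRCm38.p5 was the build and HOMER 4.8, STAR 2.5.2a, edgeR and SAMtools were the tools, per the submitters' processing notes, which state no roles and no rule for assigning reads. The deposited read columns are a signal: the authors scaled each library to a common total, and within a library all values are multiples of the same step, so whole reads were recovered for 100% of values (tolerance 0.01 scaled reads). The deposited FPKM values served as an alternative. The authors' deposited comparison table gives log2 fold changes, p-values and false discovery rates, per the file headers.

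An edgeR test had been planned for whole counts; for scaled reads the plan was limma-trend from limma 3.58.1 in R 4.3.3, applied to log2 scaled reads after TMM (edgeR 4.0.16), with a pseudocount of 1 scaled read (0.055 CPM). Fold changes are on this scale and understate changes of low genes. Genes were kept by filterByExpr (minimum 10 reads, total 15), 1 fit of all 6 libraries held group alone, and Benjamini-Hochberg adjustment ran over all genes tested. DESeq2 1.42.0, limma-voom and edgeR's quasi-likelihood test on the recovered reads were alternatives. CPM use TMM-adjusted totals of recovered reads with the SD over 3 clones after ±. The steps were tested on simulated counts. These were drawn independently for each gene, without a shift shared by control clone 1 and dKO clone 3, so they do not cover that feature of the data. The genes, lists and alternatives were chosen with earlier results of these data known. Values in every clone were given by rule for the STAT and IRF genes and, in each role group, for the 3 genes with the lowest p, the 2 with the widest range at a mean of at least 1 CPM and the highest; from each pathway list the 4 with the lowest p were named. Of the 36 transcripts, 33 had the same coordinates in GENCODE M21, the source of exon counts; coordinates are those of the deposited table. p-values measure the spread between these clones, which includes clonal differences other than the knockout.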

Additional observations from a re-analysis of the deposited data

How the results depend on the processing

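Over 20 alternatives the count of interferon response genes past the threshold stayed 0 except with control clones 2 and 3 and dKO clones 1 and 2 alone, where it was 4, all lower. Those 4 libraries gave 518 genes in all and 9 of the pathway, against 28 and 0 in the reported fit. The count of all genes was 17 without TMM factors, 213 with DESeq2, 91 with deposited FPKM and 71 with a term for the 2 libraries; pathway genes numbered 2 with DESeq2, and 1 each with FPKM and with that term. The cause was not tested. Leaving out 1 library gave 11 to 146 genes in all: 146 when control clone 1 was left out, 47 for dKO clone 3, 13 for dKO clone 1 and 11 for dKO clone 2. With clone number as a replicate block, 196 genes passed and 0 interferon response genes. The labels give same-numbered clones no shared origin, so the clones were not paired in the reported fit. Deviations of same-numbered clones from their group means correlated at -0.36, 0.64 and -0.34, and those of control clone 1 and dKO clone 3 at 0.66. These values cannot tell whether the numbers pair the clones, since control clone 1 and dKO clone 3 stand apart from the others. Allowing 1 mismatch in the ISRE core gave 71.4% of the promoters of these genes and 31.4% of all promoters, and in the GAS 64.3% and 65.8%.

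Of 36 genes 23 kept their sign in every alternative. In the 4 libraries the log2 fold change turned to -0.12 for Ifit1, -0.29 for Ifi27, 0.19 for Samd9l, 0.0406 for Parp9, -0.12 for Ifih1, -0.0564 for Adar and -0.19 for Rsad2. With chromosome medians removed it turned to 0.10 for Samd9l, -0.0229 for Ifih1 and -0.0204 for Adar, and with a mean of at least 1 CPM to -0.0016 for Adar. Leaving out 1 library gave ranges of -0.0744 to 0.0638 for Adar, -0.0679 to 0.45 for Ifi27, -0.14 to 0.17 for Ifih1, -0.00894 to 0.40 for Ifit1, -0.53 to 0.0717 for Ifit3, -0.26 to 0.0266 for Isg15, -0.53 to 0.19 for Mx1, -0.53 to 0.11 for Oas3, -0.19 to 0.85 for Oasl1, -0.13 to 0.0355 for Oasl2, -0.0771 to 0.0280 for Parp9, -0.32 to 0.41 for Rsad2 and -0.20 to 0.0866 for Samd9l. The median SD between clones was 0.256 to 0.270 under each scaling and pseudocount tried. The 16 genes at 1 to 10 CPM had a median counting error of 0.14 on the log2 scale, and with 3 clones a group the 95% interval of a gene such as Mx2 spans -1.17 to 0.67.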
